A study of Mus musculus with 6 samples.

Results

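The 8 genes Sele, Selp, Icam1, Icam2, Vcam1, Ackr1, Cd34 and Mcam, which encode adhesion molecules that endothelial cells (ECs) present to leukocytes, were followed by their symbols among the 32285 genes of the deposited single-cell RNA-seq tables of mouse back skin. The cells were tdTomato+ cells sorted by FACS after tamoxifen (200 µg/g at postnatal day 17) had switched on the Cdh5-CreERT2 driver, which marks cells that express VE-cadherin (Cdh5) at that time together with their progeny, and droplet libraries were made from 2 mice per wild type (WT) hair cycle stage. WT telogen skin, in which hair follicles rest, was taken at day 20, and WT anagen skin, in which they grow, at day 32. Both WT groups carried tdTomato, Cdh5-CreERT2 and Krt14-H2BGFP on a mixed C57BL/6 and CD1 strain. The Alk1 KO group, described as telogen at day 25, carried Alk1 flox/flox, tdTomato and Cdh5-CreERT2 on C57BL/6. Its libraries were grouped by their titles, since the genotype field of their labels reads wild type. All 3 groups thus shared the reporter, the driver and tamoxifen. Genotype, age, time from tamoxifen to collection, strain and the Krt14-H2BGFP allele changed together between Alk1 KO and WT telogen. The study refers to the Alk1 KO data as a dataset from earlier work, so the experiment may have differed as well. The parts of these in any difference cannot be told apart. Each group had 2 libraries, S1 and S2. The labels do not say how many mice each Alk1 KO library came from, but the study states 2 mice per stage or genotype for its single-cell libraries.

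A leukocyte leaves the blood by steps. Selectins on the endothelium (Sele encodes E-selectin, Selp P-selectin) bind sugars on the leukocyte and let it roll, and Ackr1, the atypical chemokine receptor also called DARC, binds and presents chemokines at the vessel wall. Icam1, Icam2 and Vcam1 encode immunoglobulin-family ligands of leukocyte integrins, which hold the cell fast. Cd34 and Mcam encode sialomucin and junctional glycoproteins of blood vessels, the former able to serve as an L-selectin ligand when suitably glycosylated and the latter also made by pericytes. In skin, postcapillary venules are the usual site of this traffic, and inflammatory cytokines induce Sele, Icam1 and Vcam1 through NF-kB.

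After filtering, 20941 cells remained, between 1713 and 5106 per library, from 10615358 to 43317677 unique molecular identifiers (UMIs, each marking 1 captured mRNA molecule) per library before filtering. Median depth was 6903 and 6935 UMIs per cell in WT telogen, 4630 and 6249 in WT anagen, and 4371 and 4742 in Alk1 KO. Of the cells, 12855 were ECs, namely 2491 from WT telogen, 7395 from WT anagen and 2969 from Alk1 KO. The 10 EC markers together made 4028 to 8581 CPM (counts in every 1000000 UMIs) in the 6 EC populations tested, with none at 0, against 59.5 to 422 CPM in the Fibroblast-like and Perineurial-like cells. Pericyte-like cells also held 348 to 2548 CPM of EC markers. Vein, Artery, Capillary, Lymph-Col (collecting lymphatic) and Lymph-Cap (lymphatic capillary) were named from markers that did not include the 8 genes, and the 8 genes were left out of the clustering. A further EC cluster had no marker list of its own and is called here Adamts4 ECs, after its leading gene. Vein held 127 and 131 cells in WT telogen, 287 and 602 in WT anagen, and 135 and 107 in Alk1 KO. Acvrl1, the gene of ALK1, stood at 154 and 130 CPM in WT telogen ECs and 119 and 96.8 CPM in Alk1 KO ECs, so its transcript was not lost, but 3′ tags may lie outside the deleted part and check nothing here. Pairs of libraries shared 2 to 13 cell barcodes, at most 0.32% of the smaller library.

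Levels were first described by population in the 4 WT libraries, as CPM of the UMIs summed over the cells of a library and population. Populations were clusters, so the order is a description without a test, and levels of different genes were not compared. Sele was a Vein transcript. Its level there was 1018 and 748 CPM in WT telogen, 948 and 1899 CPM in WT anagen, and 1348 and 1328 CPM in Alk1 KO. The WT mean was 1153 ± 510 CPM (SD, n = 4), 6.94 times that of Adamts4 ECs, the next population (166 ± 88.1 CPM), and the libraries of the 2 populations did not overlap. Artery stayed between 4.64 and 23.1 CPM in WT. Over all 6 libraries Vein held 81.5% of 20206 Sele UMIs, with 68.8 to 88.5% in the single libraries.

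Selp was also highest in Vein. There it reached 2097 and 1879 CPM in WT telogen, 2298 and 2953 CPM in WT anagen, and 4120 and 2529 CPM in Alk1 KO. The WT mean of 2307 ± 463 CPM (n = 4) was 4.74 times that of the next population, Proliferative ECs (487 ± 430 CPM), again without overlap. Ackr1 was bound to Vein still more closely, at 1323 and 1249 CPM in WT telogen, 1563 and 1538 CPM in WT anagen, and 872 and 532 CPM in Alk1 KO. Its WT mean of 1418 ± 156 CPM (n = 4) was 7.55 times that of Proliferative ECs (188 ± 203 CPM), Artery held at most 1.58 CPM, and 91.1% of all 17599 Ackr1 UMIs came from Vein. Ackr1 overlaps Cadm3 on the same strand, so reads of the pair are hard to assign. Cadm3 was itself among the leading genes of Vein.

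The genes whose WT levels across 14 named populations ran most like Sele, among 12321 genes, were Selp (Pearson r = 0.95), Sh2d5 (0.92) and Ackr1 (0.91). For Selp they were Sele (0.95), Sh2d5 (0.95) and Tacr1 (0.90), and for Ackr1 they were Sele (0.91), Tacr1 (0.90) and Hapln3 (0.89). The 14 points share libraries, and these values are descriptive. The 14 did not include the EC clusters called after a leading gene, such as Adamts4 ECs. Icam1, Cd34 and Mcam had their highest WT mean in such a cluster, so their nearest profiles, given below, were drawn without it. The promoters of the selectin genes, near each other on chromosome 1 and with similar profiles across populations, are shown beside that of Icam1, which was broad, as 160 bases upstream of the start in RefSeq (GRCm38.p6). Capitals mark matches to the AP-1 motif TGANTCA and to the TATA box TATAAA, searched on both strands with the sequences in view.
Sele, chr1:164048074-164048233, + strand: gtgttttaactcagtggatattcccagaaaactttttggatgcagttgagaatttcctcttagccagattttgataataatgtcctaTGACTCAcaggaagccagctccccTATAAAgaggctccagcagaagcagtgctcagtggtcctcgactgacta
Selp, chr1:164115104-164115263, + strand: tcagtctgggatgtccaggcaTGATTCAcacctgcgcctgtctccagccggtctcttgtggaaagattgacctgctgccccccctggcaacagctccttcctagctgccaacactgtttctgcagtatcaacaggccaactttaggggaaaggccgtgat
Icam1, chr9:21015780-21015939, + strand: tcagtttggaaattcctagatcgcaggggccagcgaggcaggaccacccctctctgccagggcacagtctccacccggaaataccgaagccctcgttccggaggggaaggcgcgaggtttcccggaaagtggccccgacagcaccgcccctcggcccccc
The AP-1 letters began 73 bases upstream of the Sele start and 139 bases upstream of the Selp start, and the TATA letters 49 bases upstream of the Sele start. Of 27025 promoter windows of this length, 4.57% held the AP-1 letters, 8.53% the TATA letters and 2.43% the NF-kB consensus GGGRNWYYCC. In it R is A or G, N any base, W is A or T and Y is C or T. This form matched none of the 6 members in the table, and NF-kB sites with other letters were not searched. Icam2 and Vcam1 had no entry. A match is a description of letters and shows neither binding nor use.

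In the mm10 annotation (GRCm38, GENCODE M21) Sele (ENSMUSG00000026582) spans chr1:164048234-164057677 on the plus strand, Selp (ENSMUSG00000026580) chr1:164115264-164150026, plus, Cd34 (ENSMUSG00000016494) chr1:194938819-194961279, plus, and Ackr1 (ENSMUSG00000037872) chr1:173331886-173333750, minus. Icam1 (ENSMUSG00000037405) spans chr9:21015985-21028817, plus, and Mcam (ENSMUSG00000032135) chr9:44134469-44142727, plus. Icam2 (ENSMUSG00000001029) lies at chr11:106377656-106388075 and Vcam1 (ENSMUSG00000027962) at chr3:116109949-116129688, both on the minus strand. All 8 are protein-coding. Selp, Icam1, Vcam1, Cd34 and Mcam are overlapped by antisense or noncoding genes on the other strand.

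**Figure D1:**
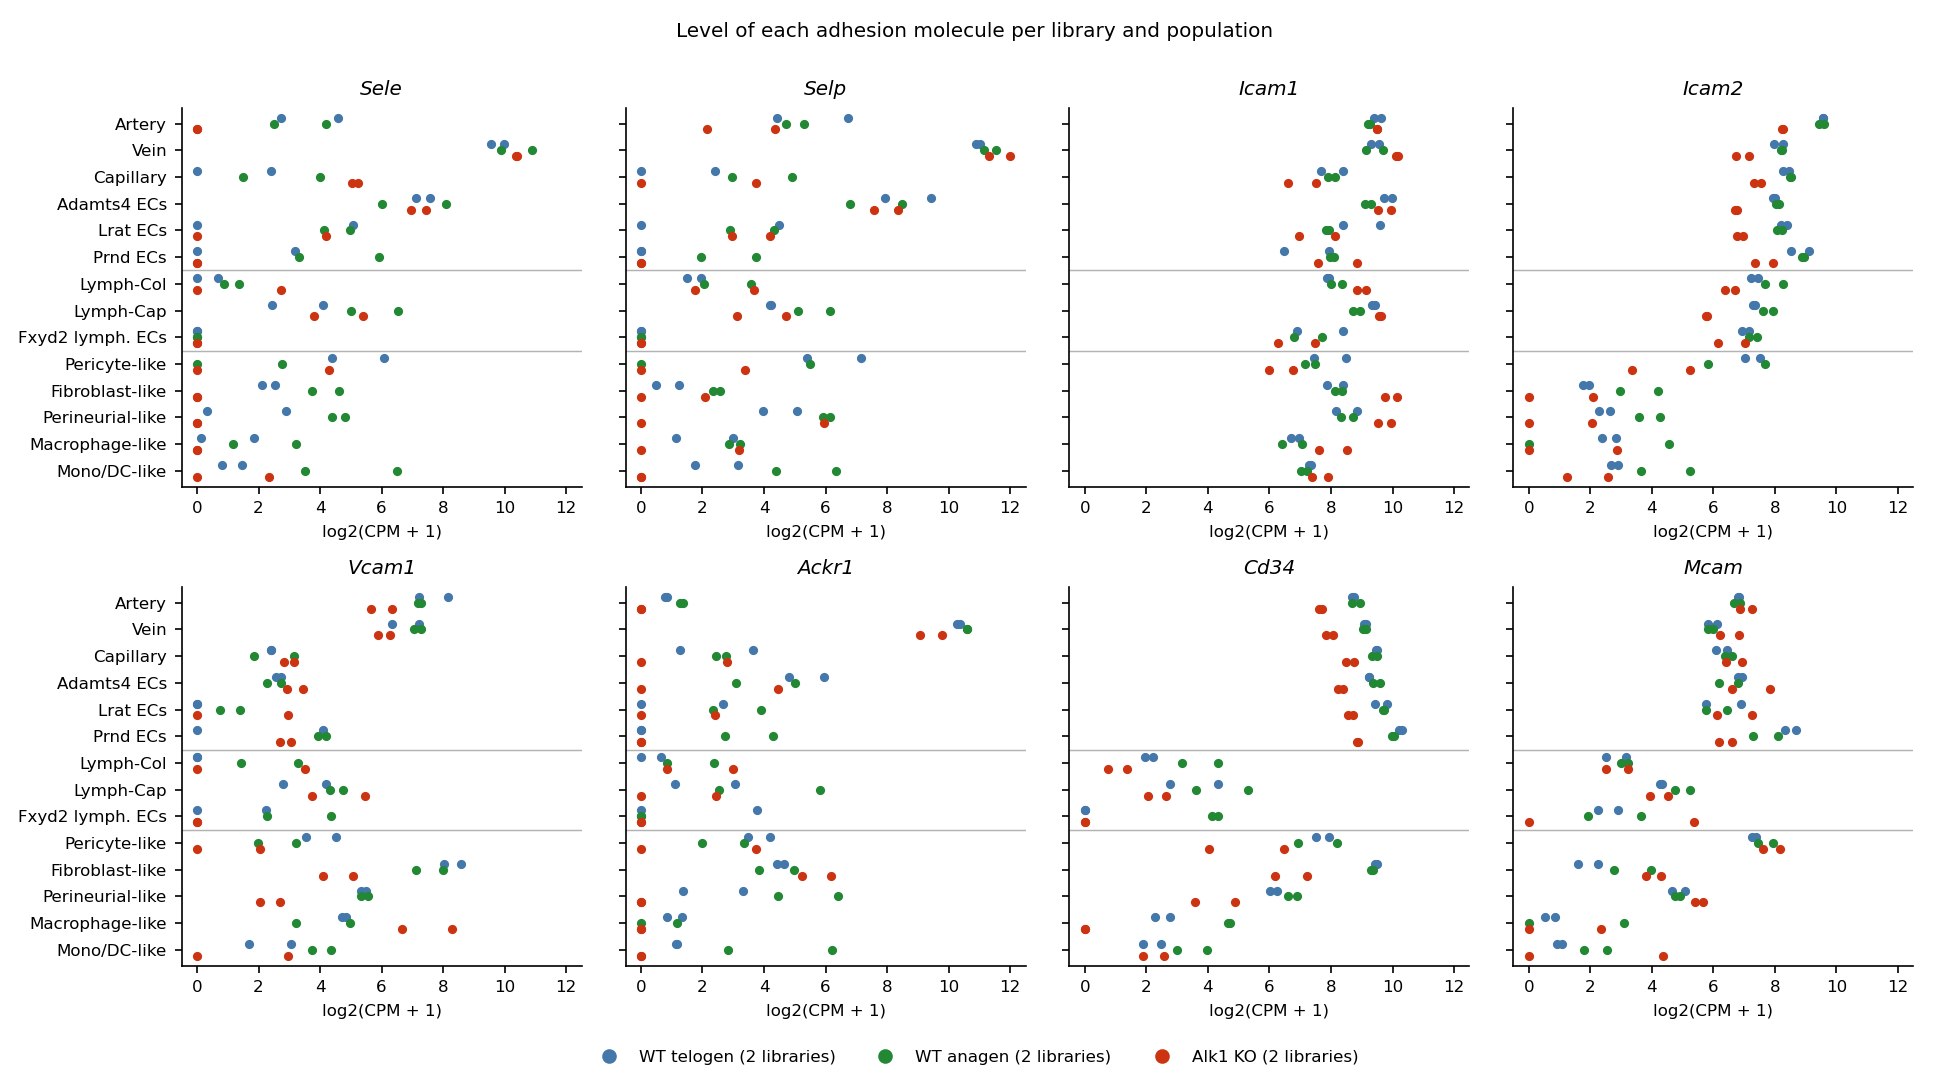
Level of each of the 8 genes, as log2(CPM + 1), in 14 populations, with 1 point per library coloured by group. The populations include the 4 EC clusters called after a leading gene. Sele, Selp and Ackr1 peak in Vein, Icam2 in Artery, and Icam1 is spread over blood, lymphatic and non-endothelial populations.

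Icam1 was broad. Its WT means were 758 ± 213 CPM in Adamts4 ECs, 695 ± 113 in Vein, 667 ± 92.2 in Artery and 563 ± 125 in Lymph-Cap (SD, n = 4 each), and each of these overlapped the next. Fibroblast-like and Perineurial-like cells also held Icam1, at 233 to 335 and 285 to 462 CPM in WT. Its nearest profiles were those of CAAA01147332.1 (r = 0.95), Cutc (0.91) and Eif2b1 (0.91).

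Icam2 was endothelial and highest in Artery. There it stood at 747 and 754 CPM in WT telogen, 693 and 773 CPM in WT anagen, and 299 and 310 CPM in Alk1 KO. The WT mean of 742 ± 34.5 CPM (n = 4) was 1.57 times that of the next population, a small EC cluster led by Prnd (471 ± 76.5 CPM), without overlap. Vein held 308 and 249 CPM in WT telogen, and Lymph-Col 147 and 176. Its nearest profiles were those of Sox7 (r = 0.99), Adcy4 (0.98) and Rasip1 (0.98).

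Vcam1 had its highest WT mean outside the endothelium. In Fibroblast-like cells it reached 385 and 257 CPM in WT telogen, 251 and 139 CPM in WT anagen, and 16.3 and 32.9 CPM in Alk1 KO. The WT means of Fibroblast-like cells (258 ± 101 CPM), Artery (183 ± 68.2) and Vein (128 ± 33.4) were not separated beyond their spread (n = 4 each), but Vein lay 3.03 times above Perineurial-like cells (42.2 CPM) without overlap. Its nearest profiles were those of Igfbp4 (r = 0.92), Cfb (0.88) and Nucb2 (0.88).

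Cd34 was widespread in blood ECs and near absent from lymphatic ECs. The Prnd-led cluster was highest (1125 ± 109 CPM), and Capillary held 702 and 726 CPM in WT telogen, 641 and 720 CPM in WT anagen, and 433 and 356 CPM in Alk1 KO. An EC cluster led by Lrat (815 ± 92.2 CPM), Adamts4 ECs (655 ± 81.3 CPM) and Proliferative ECs (611 ± 83.4 CPM) also lay above Vein in WT mean. Vein (548 ± 22.7 CPM) and Artery (436 ± 41.2 CPM) were lower (n = 4 each), whereas pooled lymphatic ECs held 3.95 to 26.4 CPM. Fibroblast-like cells, in which Cd34 is a well-known marker of dermal stroma, held 630 to 721 CPM in WT. Its nearest profiles were those of Snai2 (r = 0.95), Akr1c14 (0.93) and Ly6c1 (0.93).

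Mcam was highest in the Prnd-led cluster (289 ± 107 CPM) and in Pericyte-like cells (184 ± 40.4 CPM), which overlapped. The Pericyte-like libraries held 150 and 168 CPM in WT telogen, 174 and 242 CPM in WT anagen, and 196 and 283 CPM in Alk1 KO. Artery held 99.8 to 116 CPM in WT and Vein 60.7 ± 5.86 CPM (n = 4). Its nearest profiles were those of Mgll (r = 0.95), Gpatch4 (0.94) and Tcim (0.94).

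**Figure D2:**
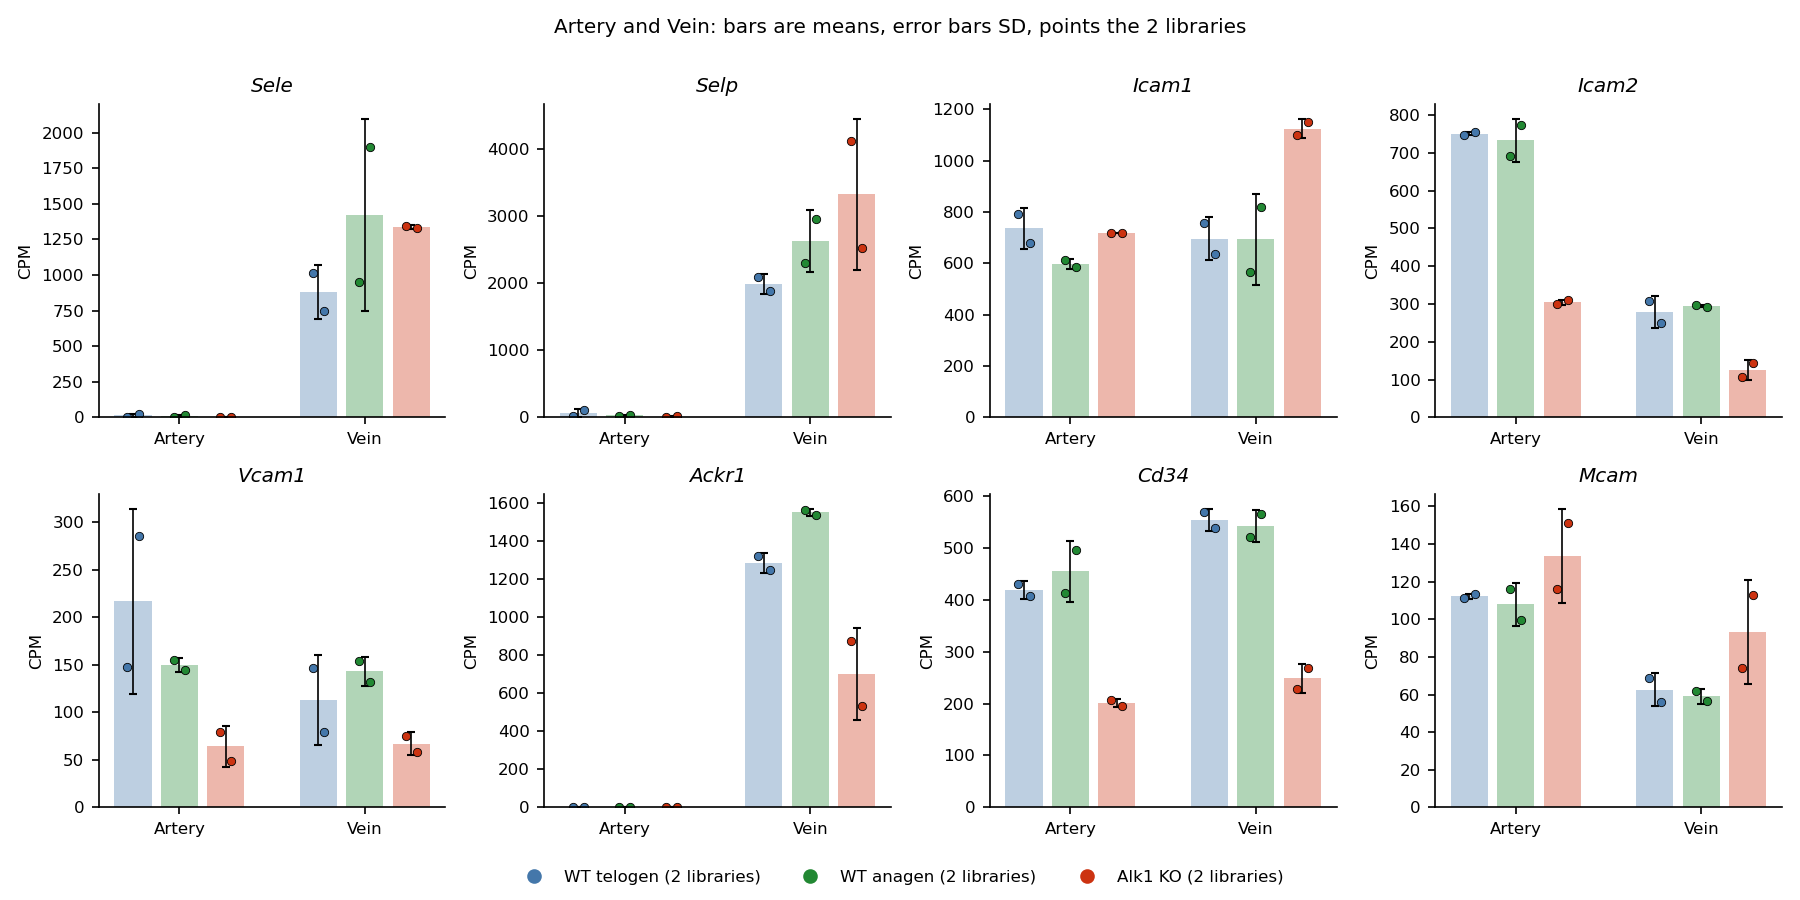
CPM of each gene in Artery and Vein (bars, mean of the 2 libraries of a group; error bars, SD; points, libraries) for WT telogen, WT anagen and Alk1 KO, with the CPM axis from 0. Sele, Selp and Ackr1 stand in Vein and Icam2 stands higher in Artery in all 3 groups.

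The share of cells with at least 1 UMI gave the same picture in WT when every cell was thinned to 1500 UMIs, which left out 5 of 1147 WT Vein cells as shallower. In Vein 52.5% of WT cells held a Sele UMI (exact Clopper-Pearson 95% interval 49.5 to 55.4%, for counting error only), 68.6% a Selp UMI and 63.1% an Ackr1 UMI, against 72.7, 90.7 and 79.4% without thinning. Macrophage-like cells, which should lack these genes, held 0.085, 0.17 and 0.085% after thinning, at an unthinned median depth of 12650 UMIs against 8111 in WT Vein. Icam2 UMIs were found in 63.5% of WT Artery cells (61.4 to 65.5%) and Cd34 UMIs in 59.1% of WT Capillary cells, with 0.76 and 0.68% in Macrophage-like cells. Vcam1 UMIs were found in 23.0% of WT Fibroblast-like cells, 11.8% of WT Artery cells and 3.13% of Macrophage-like cells. The last share was not taken as background, since Macrophage-like cells held Vcam1 at a WT mean of 22.9 CPM. Icam1 likewise has no such background population, since macrophages express it, and 13.7% of Macrophage-like cells held a UMI.

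**Figure D3:**
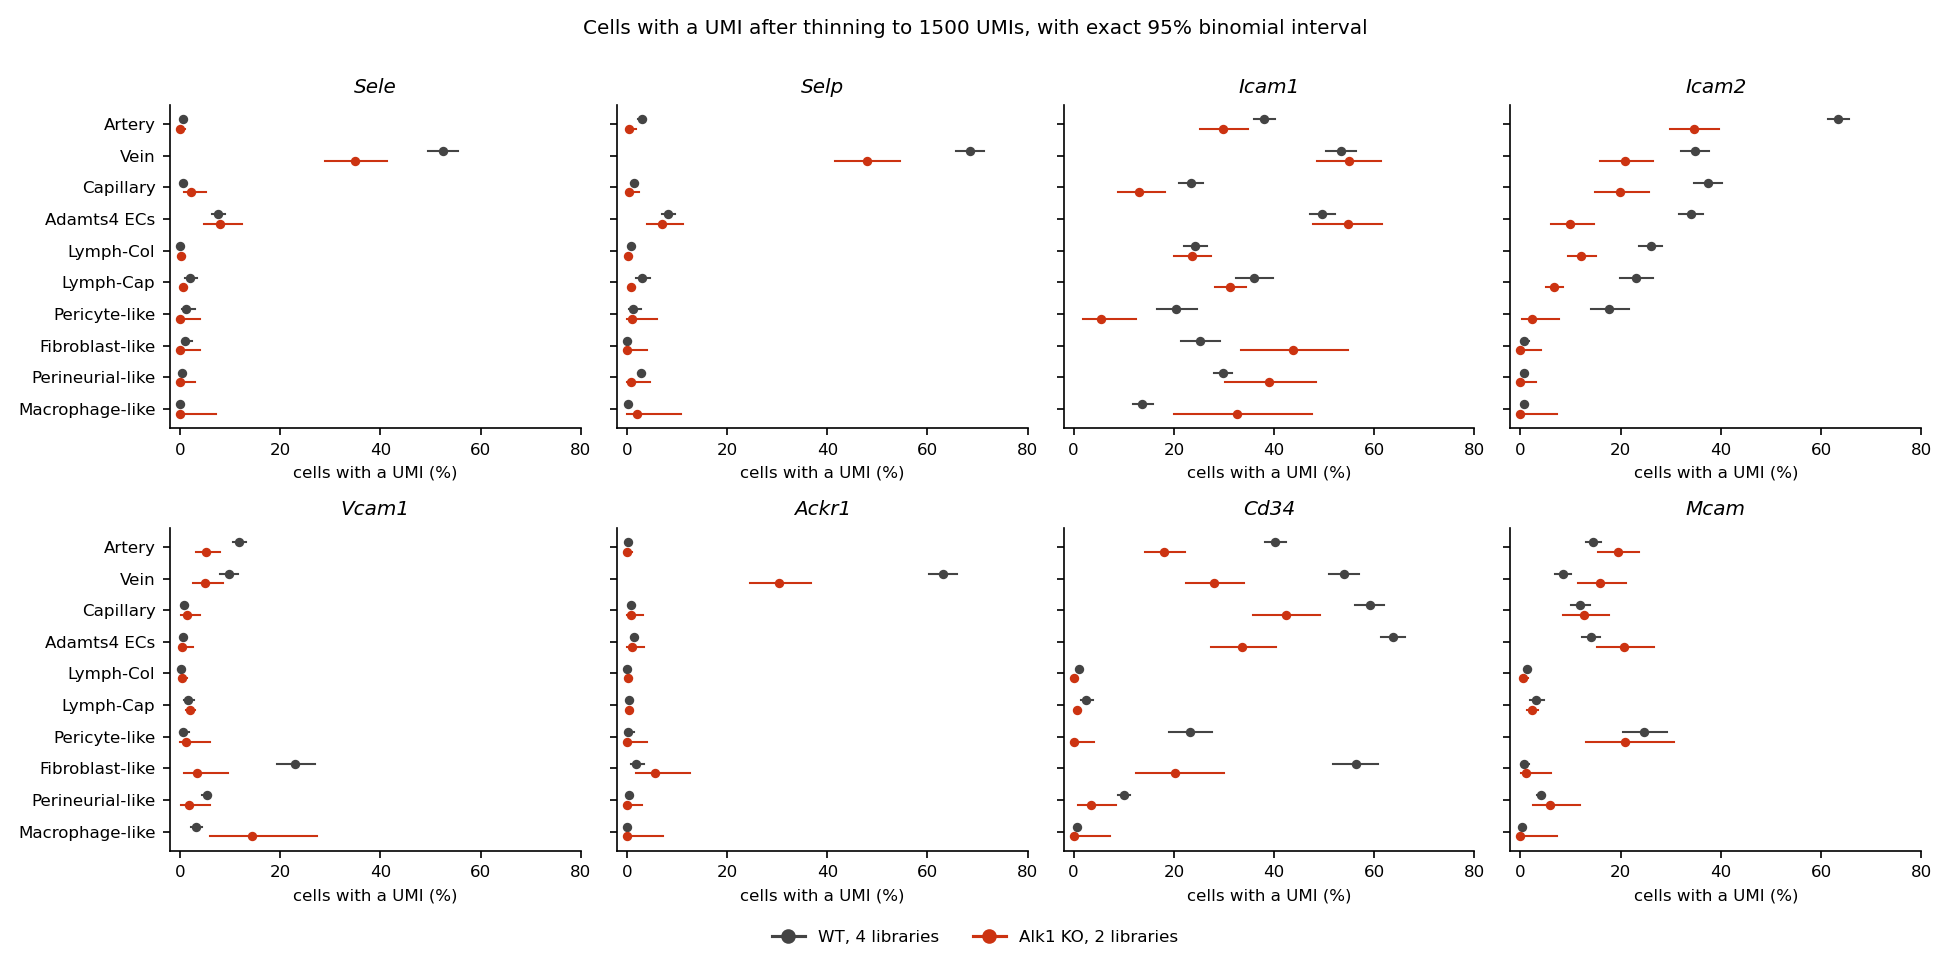
Percent of cells with at least 1 UMI after thinning each cell to 1500 UMIs, by gene and population, for the 4 WT and the 2 Alk1 KO libraries pooled, with exact 95% binomial intervals. Sele, Selp and Ackr1 are found in 52.5, 68.6 and 63.1% of WT Vein cells and in 35.0, 47.9 and 30.4% of Alk1 KO Vein cells.

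The comparison of WT anagen with WT telogen asked which of the 8 genes differed between the growing and the resting stage. Summed UMIs were fitted per population with edgeR's quasi-likelihood test, 2 libraries against 2, and a call needed a fold above 1.3 and a p under 0.05 after Benjamini-Hochberg adjustment over all genes tested. An exact permutation test of 2 against 2 libraries cannot go below p = 0.333, so single values rest on this model, and in summed cells fewer expressing cells and less RNA per cell cannot be told apart. Of 72 pairs of gene and population, 61 had counts enough to be tested, and edgeR called 1 higher and 0 lower. DESeq2 called 2, and 19 higher and 3 lower differences had an unadjusted p under 0.05. The shares of all genes called were likewise low, with 0.523% in Artery, 0.259% in Vein, 0.0377% in Capillary, 0.438% in Adamts4 ECs, 1.68% in Lymph-Col, 0.348% in Lymph-Cap, 1.1% in Perineurial-like and 0.0654% in Fibroblast-like cells. In Pericyte-like cells 0% was called, 0 of 8618 genes by edgeR, with 526 at an unadjusted p under 0.05 and 6 called by DESeq2.

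The selectin genes and Ackr1 had higher mean levels in anagen Vein without passing the test. Sele differed by 0.81 (log2 fold change, SE 0.28, edgeR adjusted p = 0.282), and its telogen libraries at 1018 and 748 CPM overlapped the anagen range of 948 to 1899 CPM. Selp differed by 0.52 (SE 0.15, edgeR adjusted p = 0.209) and Ackr1 by 0.39 (SE 0.12, edgeR adjusted p = 0.239), each with both anagen libraries above both telogen libraries. For Sele single libraries decided the size, which was 1.23 and passed without anagen S1 and was 0.23 (adjusted p = 0.818) without anagen S2.

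The other members were likewise not called in the population of highest WT mean among the 9 tested. Icam1 in Adamts4 ECs went from 841 and 1018 CPM to 547 and 625 CPM, a difference of -0.57 (SE 0.17, edgeR adjusted p = 0.137). The groups did not overlap, but the call was not reached. Vcam1 in Fibroblast-like cells differed by -0.64 (SE 0.32, edgeR adjusted p = 0.473) and Mcam in Pericyte-like cells by 0.41 (SE 0.25, edgeR adjusted p = 0.817). Icam2 in Artery differed by 0.07 (SE 0.12, edgeR adjusted p = 0.83) and Cd34 in Capillary by -0.06 (SE 0.16, edgeR adjusted p = 0.952).

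The call was Icam2 in Perineurial-like cells, a non-endothelial population with low Icam2. It rose from 3.89 and 5.24 CPM in WT telogen to 11.1 and 18.2 CPM in WT anagen, a log2 difference of 1.79 (SE 0.34, edgeR adjusted p = 0.0466). The 10 EC markers moved with it in the same cells, from 215 and 231 CPM to 372 and 422 CPM, and their part in the result was not tested. The call was lost with DESeq2 (adjusted p = 0.0695), in a fit of all 6 libraries (adjusted p = 0.0578) and without anagen S2 (1.35, adjusted p = 0.178). With cells under 5% mitochondrial UMIs, and without the 5% of cells with the highest doublet scores, Icam2 had too few counts there to be tested.

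**Figure D4:**
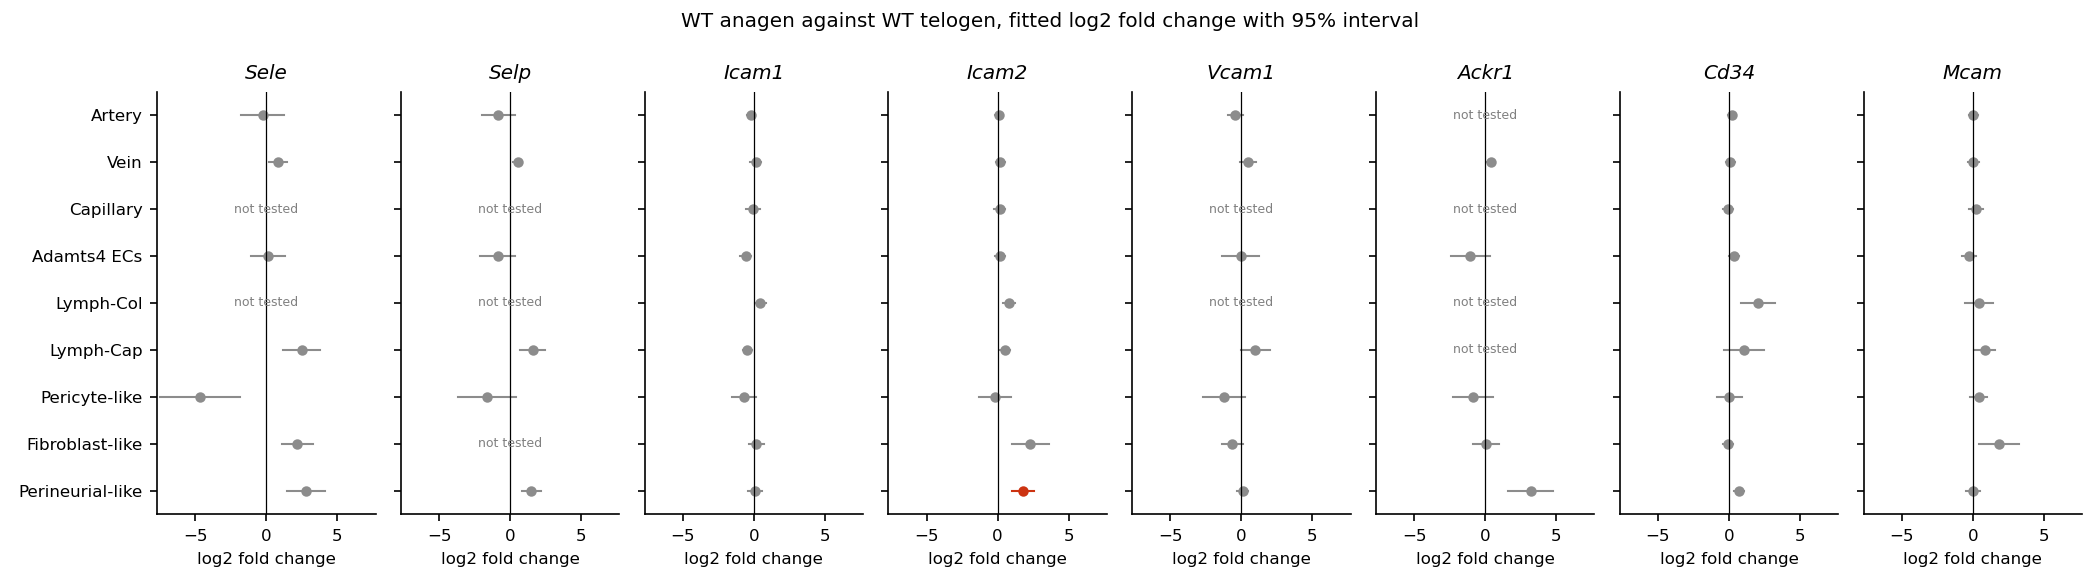
Log2 fold change of WT anagen against WT telogen for each gene in 9 populations (points, edgeR estimate; lines, 95% interval), with called differences in red (higher) or blue (lower) and the rest in grey. Icam2 in Perineurial-like cells, at 1.79, is the coloured point.

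The comparison of Alk1 KO with WT telogen asked how the 8 genes differed with loss of ALK1, an endothelial receptor for BMP ligands. Its limits were the shared differences in age, time since tamoxifen, strain and allele, and possibly in experiment. Of 72 pairs 51 were tested, and 8 were called higher and 19 lower. Calls were frequent over all genes too, 17.7% in Artery, 20.4% in Vein, 33.2% in Capillary, 17% in Adamts4 ECs, 16.9% in Lymph-Col, 15.7% in Lymph-Cap, 21.5% in Perineurial-like, 6.02% in Pericyte-like and 38.5% in Fibroblast-like cells. Beside these shares, 4 of 6 tested members were called in Artery, 6 of 8 in Vein, 4 of 5 in Capillary, 2 of 7 in Adamts4 ECs, 2 of 3 in Lymph-Col, 1 of 6 in Lymph-Cap, 3 of 5 in Perineurial-like, 1 of 6 in Pericyte-like and 4 of 5 in Fibroblast-like cells.

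In Vein the selectin genes and Icam1 were higher in Alk1 KO and Ackr1, Icam2 and Cd34 lower. Sele stood at 1348 and 1328 CPM against 1018 and 748 CPM in WT telogen, without overlap, 1.5-fold higher (0.59, SE 0.17, edgeR adjusted p = 0.0334). Selp stood at 4120 and 2529 CPM against 2097 and 1879 CPM, 1.67-fold higher (0.74, SE 0.20, edgeR adjusted p = 0.0219), with S1 much above S2 in the KO. Icam1 stood at 1098 and 1151 CPM against 756 and 636 CPM, 1.6-fold higher (0.68, SE 0.16, edgeR adjusted p = 0.0111). These 3 calls each rested on 1 library or more. Sele was not called in the fit of all 6 libraries (0.59, adjusted p = 0.13). Without telogen S2 Sele (0.36) and Icam1 (0.54) no longer passed, and without KO S1 neither did Sele (0.58) and Selp (0.34).

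The higher selectin sums were held by fewer Vein cells. Selp UMIs were found in 115 of 127 and 112 of 131 WT telogen Vein cells, but in 96 of 135 and 70 of 107 Alk1 KO cells. The 5 cells with most Selp UMIs held 23.4 and 25.9% of them in WT telogen and 32.0 and 49.7% in Alk1 KO, and for Sele these shares were 24.4 and 26.9% against 35.2 and 51.3%. After thinning to 1500 UMIs, 48.8 and 38.5% of WT telogen Vein cells held a Sele UMI, against 35.8 and 34.0% in Alk1 KO. The share of cells and the CPM thus ran in opposite directions, and no order was read from the shares.

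Ackr1 was lower in Alk1 KO Vein, at 872 and 532 CPM against 1323 and 1249 CPM, 1.84-fold (-0.88, SE 0.21, edgeR adjusted p = 0.0124), with no overlap. This call depended on which cells were taken as Vein. When clusters were drawn without correction between libraries, only 43 and 32 Alk1 KO cells were called Vein, and among them the Ackr1 difference was 0.21 (adjusted p = 0.444), while Sele (1.80), Selp (1.99) and Icam1 (1.71) differed more than before. With cells under 5% mitochondrial UMIs the Ackr1 difference was -0.61 (adjusted p = 0.125). The 5 cells with most Ackr1 UMIs held 25.6 and 20.6% of them in WT telogen and 34.7 and 61.9% in Alk1 KO. Markers of pericytes, 10 genes, summed to 498 and 508 CPM in WT telogen Vein and 654 and 1292 CPM in Alk1 KO Vein. Of 10 dissociation-response genes (immediate early and heat shock genes), 2 were called higher and 0 lower in Alk1 KO Vein. Their median difference was 0.11, beside 0.01 over all genes tested, of which 9.04% were called higher. The part of both lists in the Vein differences was not tested.

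Icam2 was lower in Alk1 KO in 7 of the 9 populations, and had too few counts to be tested in Perineurial-like and Fibroblast-like cells. In Artery its libraries at 299 and 310 CPM lay far below the 747 and 754 CPM of WT telogen, 2.45-fold (-1.30, SE 0.14, edgeR adjusted p = 0.000163). In Vein it fell from 308 and 249 CPM to 106 and 143 CPM, 2.27-fold (-1.18, SE 0.20, edgeR adjusted p = 0.00208). Capillary fell from 348 and 303 CPM to 188 and 160 CPM, 2.16-fold (-1.11, SE 0.20, edgeR adjusted p = 0.00167). None of these groups overlapped. Adamts4 ECs, from 247 and 255 CPM to 104 and 108 CPM, differed by 2.38-fold (-1.25, SE 0.19, edgeR adjusted p = 0.00222). Lymph-Cap, from 156 and 162 CPM to 55.1 and 53.7 CPM, differed by 3.03-fold (-1.60, SE 0.16, edgeR adjusted p = 2.25e-05), and Lymph-Col, from 147 and 176 CPM to 82.1 and 102 CPM, by 1.82-fold (-0.86, SE 0.18, edgeR adjusted p = 0.00744), a call lost without telogen S2. So both lymphatic populations and all 4 blood EC populations tested moved the same way. The 10 dissociation-response genes (immediate early and heat shock genes) summed higher in Alk1 KO in Adamts4 ECs (10280 and 9425 CPM against 5795 and 5263 CPM), Lymph-Col (25590 and 23480 against 19510 and 16380) and Lymph-Cap (11230 and 12290 against 8389 and 7750). Of these 10 genes, 6 were called higher in Adamts4 ECs and 2 in Lymph-Col, but in Lymph-Cap 3 were called higher and 4 lower. Their part was not tested. In Artery, thinned to 1500 UMIs, 34.6% of Alk1 KO cells held an Icam2 UMI (29.8 to 39.6%), against 63.5% in WT cells of both stages pooled.

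Among non-endothelial cells Icam2 was tested in Pericyte-like cells alone, where it fell from 182 and 131 CPM to 9.32 and 37.1 CPM (-2.97, SE 0.51, edgeR adjusted p = 0.0215). EC markers in these cells moved with it, from 2456 and 2034 CPM to 348 and 1411 CPM, and their part was not tested. The call was lost in a fit of all 6 libraries (adjusted p = 0.0516).

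Cd34 was lower in 6 populations, 4 of them endothelial. In Capillary it fell from 702 and 726 CPM to 433 and 356 CPM, 2.09-fold (-1.06, SE 0.20, edgeR adjusted p = 0.00215), in Vein from 568 and 538 CPM to 229 and 268 CPM, 2.25-fold (-1.17, SE 0.17, edgeR adjusted p = 0.000982), and in Artery from 431 and 406 CPM to 207 and 195 CPM, 2.07-fold (-1.05, SE 0.14, edgeR adjusted p = 0.000707). Adamts4 ECs went from 596 and 598 CPM to 296 and 336 CPM, 1.91-fold (-0.93, SE 0.20, edgeR adjusted p = 0.0118), a call lost without telogen S1 or telogen S2. The KO libraries lay below WT telogen in each of these without overlap. The Cd34 and Icam2 calls in Artery and Vein were kept under every alternative run.

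Outside the endothelium Cd34 fell 8.15-fold in Fibroblast-like cells, from 721 and 689 CPM to 150 and 71.9 CPM (-3.03, SE 0.35, edgeR adjusted p = 0.000705), and 3.3-fold in Perineurial-like cells, from 74.2 and 63.6 CPM to 28.5 and 11.1 CPM (-1.72, SE 0.39, edgeR adjusted p = 0.00638).

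Vcam1 was lower in Artery, Perineurial-like and Fibroblast-like cells, all 3 kept under every alternative run. For Fibroblast-like cells the alternative without correction between libraries could not be run, since too few Alk1 KO cells were then placed there. In Fibroblast-like cells it went from 385 and 257 CPM to 16.3 and 32.9 CPM, 15.6-fold lower (-3.96, SE 0.37, edgeR adjusted p = 0.000349). In Artery it went from 148 and 285 CPM to 79.3 and 48.9 CPM, 3.36-fold lower (-1.75, SE 0.30, edgeR adjusted p = 0.00276), and in Perineurial-like cells from 39.4 and 44.5 CPM to 3.17 and 5.53 CPM, 10.9-fold lower (-3.45, SE 0.63, edgeR adjusted p = 0.00169). No KO library reached a WT telogen library in these 3 populations. Vein, at 75.4 and 58.2 CPM against 146 and 79.8 CPM, did not pass (-0.76, edgeR adjusted p = 0.0766), nor did Lymph-Cap at 43.0 and 12.2 CPM against 17.3 and 5.89 CPM (1.10, edgeR adjusted p = 0.27).

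Icam1 moved in both directions. It was higher in Alk1 KO Lymph-Col, where the dissociation-response genes were also higher, at 458 and 567 CPM against 235 and 241 CPM, 2.07-fold (1.05, SE 0.16, edgeR adjusted p = 0.00138), a call lost without correction between libraries (0.49). It was higher in Fibroblast-like cells, at 1123 and 856 CPM against 335 and 233 CPM, 2.78-fold (1.48, SE 0.27, edgeR adjusted p = 0.00473), and in Perineurial-like cells, at 979 and 741 CPM against 462 and 285 CPM, 2.18-fold (1.13, SE 0.26, edgeR adjusted p = 0.00646). In Capillary it was lower, at 182 and 96.6 CPM against 331 and 204 CPM, 2.21-fold (-1.15, SE 0.31, edgeR adjusted p = 0.015). Adamts4 ECs, where its WT mean was highest, did not differ beyond error (-0.11, SE 0.24, edgeR adjusted p = 0.789), and Lymph-Cap did not either (0.15, edgeR adjusted p = 0.556). The Fibroblast-like call was lost without telogen S1 or telogen S2, and the Perineurial-like call without telogen S2 or without the 5% of cells with the highest doublet scores.

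In Fibroblast-like cells other measures moved with genotype. The 7 fibroblast markers summed to 89960 and 80690 CPM in WT telogen but to 23550 and 16600 CPM in Alk1 KO, and the 10 dissociation-response genes summed to 6283 and 5749 CPM against 20500 and 19530 CPM. Only 35 and 57 Alk1 KO cells were in this population. Without correction between libraries too few were placed in it for any member to be tested. Perineurial-like cells held 13050 and 13730 CPM of the fibroblast markers against 7962 and 7593 CPM in Alk1 KO. The part of these in the differences of Icam1, Vcam1, Cd34 and Mcam was not tested. Mcam in Fibroblast-like cells was called higher from 2.06 and 3.72 CPM to 13.02 and 18.5 CPM (2.10, SE 0.53, edgeR adjusted p = 0.0166), a call lost with DESeq2 and without KO S1 or KO S2. In Pericyte-like cells Mcam differed by 0.49 (SE 0.27, edgeR adjusted p = 0.276).

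The Capillary calls needed both KO libraries. Without KO S1 0 of 8177 genes were called there by edgeR, with 2614 at an unadjusted p under 0.05, and without KO S2 0 of 8252 were called, with 2383 at an unadjusted p under 0.05. The differences themselves were then -1.24 and -0.99 for Icam2, -1.22 and -0.92 for Cd34, 3.78 and 3.57 for Sele and -1.69 and -0.76 for Icam1. The Icam1 call in Capillary was also lost with no low-count filter, with cells under 5% mitochondrial UMIs and without correction between libraries (-0.10). The dissociation genes summed to 12310 and 9950 CPM in WT telogen Capillary and 8390 and 5465 CPM in Alk1 KO Capillary, and their part was not tested. Sele was called higher in Capillary, at 31.6 and 37.0 CPM against 4.27 and 0 CPM (3.67, SE 0.66, edgeR adjusted p = 0.00193). This was 16 UMIs in 6 of 164 cells and 18 UMIs in 4 of 186 cells in Alk1 KO, against 3 UMIs in 1 cell and none in WT telogen, so a few cells carried it.

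In Artery the selectin transcripts went the other way from Vein. Sele had 8 UMIs in 2 cells of telogen S1 Artery and 29 UMIs in 5 cells of telogen S2 Artery (5.66 and 23.1 CPM, 13.9 CPM over the group). Alk1 KO Artery held 0 of 2442157 UMIs, and Sele was not tested. With 3 counts over the group taken as the limit that a count of 0 allows, the WT telogen level was 11.3 times that limit. For telogen S1 alone the ratio was 4.61. This limit counts UMIs as independent draws, but a few cells held them all, so neither value bounds the difference between cells or mice. Selp was called lower, from 20.5 and 106 CPM to 3.41 and 19.7 CPM, 5.21-fold (-2.38, SE 0.73, edgeR adjusted p = 0.0446). The call was lost with DESeq2, in the fit of all 6 libraries, with cells under 5% mitochondrial UMIs, without telogen S2 (-0.81) and without KO S1 (-1.65).

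**Figure D5:**
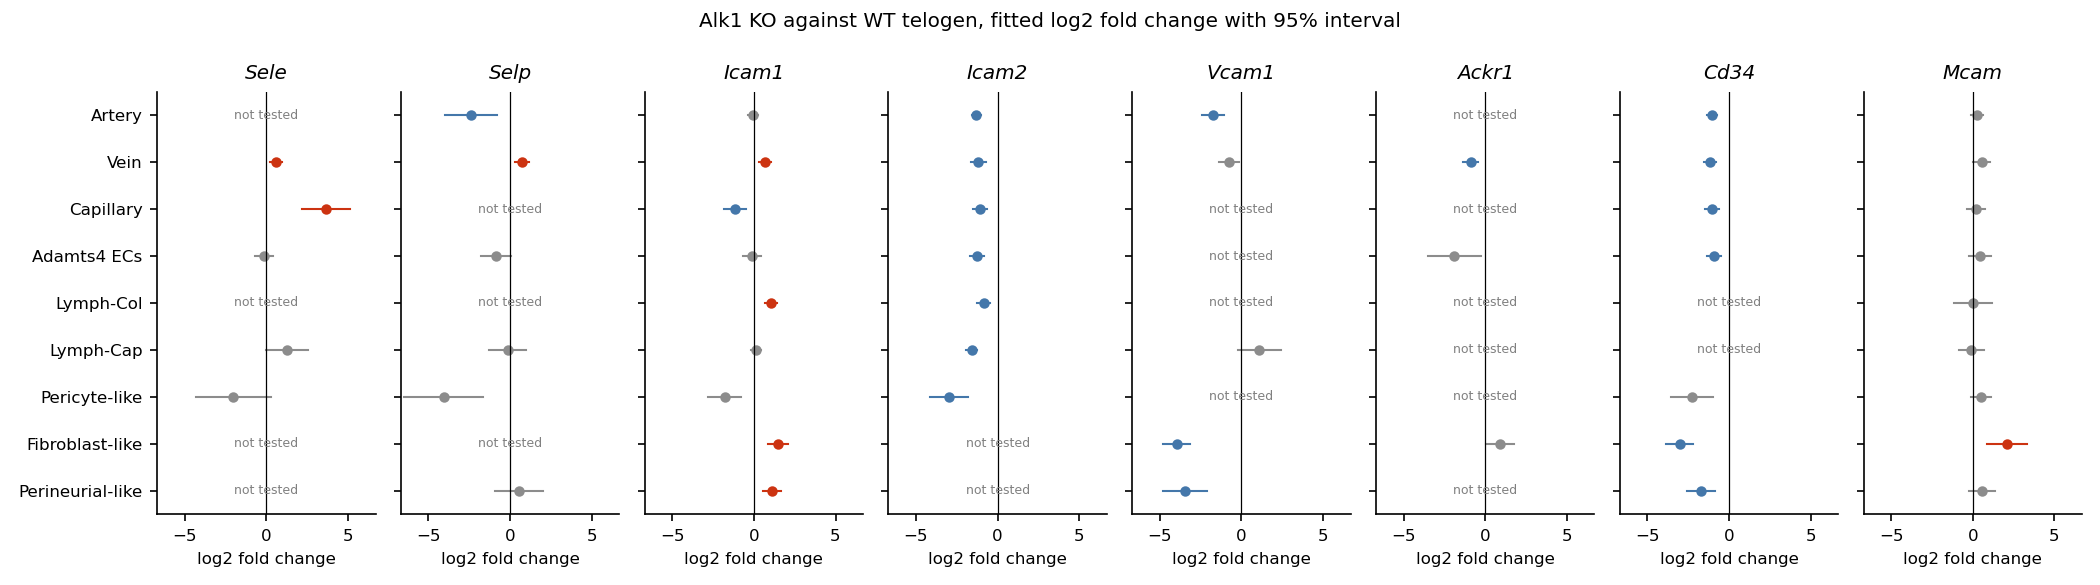
Log2 fold change of Alk1 KO against WT telogen for each gene in 9 populations (points, edgeR estimate; lines, 95% interval), with called differences in red (higher) or blue (lower) and the rest in grey. Icam2 and Cd34 lie below 0 in the blood EC populations, while in Vein Sele, Selp and Icam1 lie above 0, at 0.59, 0.74 and 0.68.

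Whether a difference itself differed between vessel types was tested by interaction terms with the library as a block. Between Vein and Artery, 3.56% of all genes had a KO difference that differed, and 3 members did. Selp differed by 2.97 (SE 0.53, edgeR adjusted p = 0.000734), from higher in Vein to lower in Artery, and Icam1 by 0.71 (SE 0.14, edgeR adjusted p = 0.00278). Sele differed by 7.63 (SE 1.18, edgeR adjusted p = 0.000123), a fitted value that depends on the prior count, since the KO Artery libraries held no Sele UMI. For stage the share was 0.367% and 0 members were called by edgeR, 3 of 8 having an unadjusted p under 0.05, with no other tool run.

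Between lymphatic and blood ECs pooled, 19.6% of all genes had a KO difference that differed. Icam1 went from 365 and 354 CPM to 644 and 667 CPM in lymphatic ECs and from 691 and 629 CPM to 793 and 667 CPM in blood ECs, an interaction of 0.70 (SE 0.15, edgeR adjusted p = 0.00412). Vcam1 went from 5.74 and 1.56 CPM to 26.2 and 11.2 CPM in lymphatic ECs and from 90.1 and 114 CPM to 47.3 and 32.9 CPM in blood ECs, an interaction of 3.58 (SE 0.41, edgeR adjusted p = 3.73e-05). Lymph-Cap cells made 34.4 and 28.7% of lymphatic ECs in WT telogen and 57.7 and 59.8% in Alk1 KO, and the part of this makeup was not tested. For stage 0.282% of genes were called. Sele, at 5.38 and 1.17 CPM in telogen and 10.4 and 35.0 CPM in anagen lymphatic ECs, gave an interaction of 2.37 (SE 0.37, edgeR adjusted p = 0.0119), and Selp, at 6.46 and 6.64 CPM against 12.05 and 32.0 CPM, one of 1.76 (SE 0.26, edgeR adjusted p = 0.0112). Pooled blood ECs held 315 and 250 CPM of Sele in telogen against 158 and 586 in anagen, where Vein made up 19.8 and 19.7% of blood ECs against 11.2 and 18.2%. The Sele call was lost without the 5% of cells with the highest doublet scores (1.55). Outside the endothelium Sele also differed by stage without a call, by 2.79 in Perineurial-like, 2.19 in Fibroblast-like and -4.65 in Pericyte-like cells.

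A wider list of 19 genes of adhesion and diapedesis, the passage of leukocytes through the vessel wall, gave 2 higher and 0 lower calls in 118 tested pairs of gene and population for stage, and 7 higher and 26 lower in 106 for Alk1 KO, beside 6.02 to 38.5% of all genes called in the 9 populations. Of the 33 Alk1 KO calls, 9 were kept under every alternative run. Its median KO difference in Vein was -0.12 beside 0.01 over all genes tested, in Artery -0.19 beside 0.01 and in Capillary -0.39 beside -0.01. The stage calls were Esam (2.34, edgeR adjusted p = 0.0163) and Pecam1 (1.76, edgeR adjusted p = 0.0135), both endothelial junction genes, in the Perineurial-like cells whose EC markers were also higher. Both calls were lost with cells under 5% mitochondrial UMIs and without the 5% of cells with the highest doublet scores. Podxl, which encodes the sialomucin podocalyxin, a relative of CD34, was lower in Alk1 KO in 7 populations, from -0.84 in Vein to -2.21 in Capillary among EC populations and -3.08 in Pericyte-like cells, whose EC markers were also lower. The Podxl call in Vein was kept under 12 of 16 alternatives. Jam2, a junctional adhesion molecule, was lower in all 4 blood EC populations (-0.51 to -0.85) and in Pericyte-like cells (-2.01). Its Artery call was lost under 7 of 16 alternatives and its Adamts4 EC call under 4 of 15. The Pericyte-like call was lost with the replicate block and in the fit of all 6 libraries. Jam3 was lower in Capillary (-1.43), Adamts4 ECs (-1.49), Perineurial-like (-2.03) and Fibroblast-like cells (-3.11). In that order these calls were kept under 14 of 16, 12 of 15, 10 of 15 and 12 of 15 alternatives. F11r, which encodes JAM-A, was higher in the same 4 blood EC populations (0.83 to 1.46) and in Perineurial-like cells (1.34), with calls lost in Capillary under 6 of 16 alternatives, in Vein under 4 of 16 and in Perineurial-like cells without KO S1. Cd44, a hyaluronan receptor, was lower in Artery (-1.93), Pericyte-like (-2.94) and Fibroblast-like cells (-1.44), and Cdh5 was lower in Vein (-0.64) and Fibroblast-like cells (-3.28). The Cdh5 calls were kept under 12 of 16 alternatives in Vein and 11 of 15 in Fibroblast-like cells, where Alk1 KO held 3 and 0 Cdh5 UMIs. In lymphatic ECs Cd47 was higher in Lymph-Col (0.98) and Lymph-Cap (0.74), Esam (-0.93) and Stab1 (-0.53) were lower in Lymph-Col, and Pvr was lower in Lymph-Cap (-1.30). Of 16 alternatives, 13 kept the Esam call and 11 the Stab1 call. Alcam was lower in Fibroblast-like cells (-3.03), a call kept under 10 of 14 alternatives, and Aoc3 was the remaining lower call, in Perineurial-like cells.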

How the data were processed

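Raw UMI counts per gene and cell barcode were deposited for 6 libraries of FACS-sorted tdTomato+ skin cells. Per the labels, the authors made these counts with Cell Ranger 6.0.1 against mm10 from NextSeq-500 reads of Chromium 3′ v3 libraries, and also used Seurat 4.0. Skin was digested with collagenase and Dispase, which bears on early response genes. All barcodes given had at least 500 UMIs. Cells with 200 to 5000 genes and under 10% mitochondrial UMIs were kept. The study's own cell calls were not used here, and rebuilt populations may differ from them. Using scanpy 1.11.5 under python 3.11.15, 3000 variable genes (without the 8 members and the wider adhesion list) and 30 principal components were taken. Libraries were corrected with a reimplementation of the Harmony algorithm (theta 2, sigma 0.1) rather than the published package. With 20 neighbours, Leiden (python-igraph 0.11.9, resolution 0.6) gave 20 clusters of all cells and 13 of ECs. A cluster took the name of a marker list with at least 3 markers at 2-fold and in at least 25% of cells, and 4 EC clusters stayed unnamed. The EC naming rule was revised after clusters and pooled member levels had been seen, 4 rules in all. The planned split of capillaries was not found, so a single Capillary class and the Adamts4-led cluster were tested, a choice made after seeing the data. Scrublet marked under 0.5% of cells in 4 of 6 libraries, so doublets stayed in, and removal of the 5% highest scores was an alternative.

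Counts were summed per library and population (at least 5 cells per library) and tested in R 4.3.3 with edgeR 4.0.16 (TMM, filterByExpr, quasi-likelihood F test, Benjamini-Hochberg over all genes), called at adjusted p under 0.05 and fold above 1.3. A standard error (SE) is that of the log2 fold change, taken as its absolute value divided by the square root of F. The test scripts were tested on simulated data. Libraries are the replicates. Alternatives were DESeq2 1.42.0, RLE factors, no low-count filter, other cell filters, another resolution (1.2), no correction between libraries, a replicate block, all libraries in one fit and each library left out. Members and lists were chosen with earlier results of these data known. Genes named in full were the called members and each member in its highest WT population, then called genes of the lists and the 3 nearest profiles (at 10 CPM or more in some population). UMI totals limit precision, and intervals cover counting error only. WT telogen served as control of both contrasts, so they are not independent.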

Additional observations from a re-analysis of the deposited data

Results flagged for a closer look

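In 7 cases a difference between groups itself differed between vessel types in the interaction test. Over all genes tested, 0.282% were called for stage in lymphatic against blood ECs. For Alk1 KO the shares were 19.6% in lymphatic against blood ECs and 3.56% in Vein against Artery. The Icam1 and Vcam1 calls between lymphatic and blood ECs stand beside that 19.6% and are no result about the members as a set. For WT anagen against WT telogen, the difference of lymphatic from blood ECs was 2.37 for Sele and 1.76 for Selp (log2 scale, higher in lymphatic ECs). Sele stayed at or below 35.0 CPM in lymphatic ECs of the WT libraries. Such stage differences were not particular to lymphatic ECs. Without a call, Sele differed by 2.79 in Perineurial-like, 2.19 in Fibroblast-like and -4.65 in Pericyte-like cells. Selp differed by 1.51 in Perineurial-like and -1.64 in Pericyte-like cells, also without a call. For Alk1 KO against WT telogen, the difference of lymphatic from blood ECs was 0.70 for Icam1 and 3.58 for Vcam1. The difference of Vein from Artery was 7.63 for Sele, 2.97 for Selp and 0.71 for Icam1. The Sele value is a fitted one against libraries with no UMI and is no measure of size.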

How the results depend on the processing

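The count of calls for stage, 1 pair of gene and population, was 2 with DESeq2, 21 with no low-count filter, 14 with the replicate block, 0 in the fit of all 6 libraries, 5 with cells under 5% mitochondrial UMIs and 2 with no correction between libraries. Leaving out 1 library at a time it ranged from 9 to 15. With 1 library left in a group, that library is assumed to vary like the others. The 27 calls for Alk1 KO ranged from 23 to 38. DESeq2 gave 28, with 25 of the 27 kept, and without correction between libraries 18 of the 27 were kept and 6 were not tested, since too few Alk1 KO cells were then placed in Adamts4 ECs and Fibroblast-like cells. Of interactions, with no low-count filter the members called were 5 against 2 for stage in lymphatic and blood ECs, 4 against 2 for Alk1 KO in lymphatic and blood ECs, and 2 against 0 for stage in Vein and Artery. Interactions were not refitted with a library left out. Sele in Vein passed for stage with no low-count filter, as did Selp in Vein and Vcam1 in Fibroblast-like cells. Over 80 single results, 1152 alternative values gave 1029 on the same side of the threshold and in the same direction, 115 that no longer passed, 5 that newly passed and 3 reversed. Reversed were Ackr1 in Vein without correction between libraries (0.21), and Icam1 in Adamts4 ECs for Alk1 KO without WT telogen S2 (0.05) and without Alk1 KO S2 (0.17). Icam1 in Adamts4 ECs was called in none of these fits and ranged from -0.42 to 0.17 when 1 library was left out. The cause of these changes was not tested.

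The labels do not tie S1 and S2 across groups, and the deviations of same-numbered libraries correlated between -0.16 and 0.16, so they were not treated as pairs. With the replicate block 30 Alk1 KO calls were made, with 26 of the 27 kept, Icam2 in Pericyte-like cells being lost (adjusted p = 0.0702). Icam1 in Adamts4 ECs passed for stage. With the crossed pairing, an alternative added after seeing the data, 33 calls were made. Another Leiden resolution kept the name of 95.8% of cells and no correction that of 87.6%.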

Other observations

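Genes around the 8 members gave further values, as log2 differences with edgeR adjusted p. For each list the share called in Alk1 KO stands beside the 6.02 to 38.5% of all genes called across the 9 populations, and is no result about the list. Of the 6 genes of the docking platform that gathers ICAM-1 and VCAM-1 beneath a bound leukocyte, 0 of 53 tested pairs of gene and population were called for stage, and 2 were higher and 11 lower of 52 for Alk1 KO. Ezr, which encodes the membrane-to-actin linker ezrin, was lower in Artery (-1.51, adjusted p = 0.00116), Lymph-Col (-1.60, adjusted p = 0.00249) and Lymph-Cap (-1.22, adjusted p = 0.0176). Msn, which encodes moesin, was lower in Artery (-0.52), Capillary (-0.96) and Perineurial-like cells (-0.75), and Cd151, a tetraspanin, in Vein (-0.79), Capillary (-1.10) and Perineurial-like cells (-1.21). Rdx, encoding radixin, was higher in Lymph-Cap (0.72) and lower in Lymph-Col (-0.70).

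Of 8 enzymes that build selectin ligands, 0 of 37 pairs were called for stage, and 2 higher and 6 lower of 36 for Alk1 KO. St3gal4, a sialyltransferase, was lower in Vein (-1.32, adjusted p = 0.00135), Capillary (-1.02), Adamts4 ECs (-1.12), Perineurial-like (-2.79, adjusted p = 0.000226) and Fibroblast-like cells (-0.99).

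Of 10 genes of TNF and NF-kB signalling, 2 of 87 pairs were higher and 1 lower for stage, and 4 higher and 9 lower of 81 for Alk1 KO. In anagen Lymph-Col, Nfkbia, an NF-kB target and inhibitor, was higher (0.999, adjusted p = 0.00703), as was the TNF receptor gene Tnfrsf1a (0.95, adjusted p = 0.0470), and Nfkb1 was lower in anagen Lymph-Cap (-0.91, adjusted p = 0.0413). In Alk1 KO Nfkb1 was lower in Artery (-0.93), Lymph-Col (-1.004), Lymph-Cap (-1.21), Pericyte-like (-1.73) and Fibroblast-like cells (-1.12). Tnfaip3, encoding the NF-kB inhibitor A20, was lower in Artery (-0.62) and Adamts4 ECs (-1.01) and higher in Lymph-Col (0.85) and Fibroblast-like cells (1.33).

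Vcam1 in Macrophage-like cells, a population outside the planned tests with 24 and 33 cells in Alk1 KO, stood at 25.4 and 27.5 CPM in WT telogen and at 101 and 315 CPM in Alk1 KO. Transcripts of macrophages (8 genes) summed to 53.0 to 268 CPM in the EC populations of WT telogen and to 3.41 to 29.1 CPM in those of Alk1 KO. The WT telogen libraries held 320 and 790 Macrophage-like cells, against 24 and 33 in Alk1 KO, and the part of these numbers was not tested.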
